A study of Homo sapiens with 9 samples.

Results

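The FOS and JUN family consists here of 7 genes, FOS, FOSB, FOSL1, FOSL2, JUN, JUNB and JUND, taken from the deposited table by their gene symbols. All 7 were among its 20812 genes, and 4 of them (FOS, FOSL2, JUNB and JUND) reached the mean of 1 RPM (reads of a gene scaled to library size, with the same total in every library) required for testing, as did 11158 genes in all. The data are 9 libraries of the established line SKBR3, derived from a human breast cancer and carrying extra copies of ERBB2. The 3 groups had 3 libraries each. Cells had received PVRL4 siRNA 2, PVRL4 siRNA 1 or a non-targeting control siRNA, in every case at 10 nM with the lipid reagent Lipofectamine RNAiMAX and for 48 h. Both PVRL4 siRNAs came from Integrated DNA Technologies and the control siRNA (ON-TARGETplus) from Horizon Discovery, so that supplier and target change together. PVRL4, named NECTIN4 in current annotation, encodes the adhesion molecule nectin-4. By its title, the series concerns the control of PVRL4 transcription by a FOS family protein, and the libraries show whether the FOS and JUN genes themselves differ once PVRL4 is lowered.

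Proteins of the FOS and JUN family form AP-1, a dimeric transcription factor. Each protein has a basic region that contacts DNA and a leucine zipper that holds the dimer together. FOS proteins do not form stable dimers with one another and bind DNA paired with a JUN protein, whereas JUN proteins can also pair among themselves. The dimers bind the sequence TGACTCA and the related TGACGTCA. FOS, FOSB, JUN and JUNB are immediate early genes, whose transcripts appear briefly after a growth or stress signal, while JUND is expressed more steadily in many cell types.

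The promoters of the genes with the clearest readings are shown first, together with those of JUN, which was almost unread, and of PVRL4, the gene targeted by the siRNAs. RefSeq (GRCh38.p14) held a promoter for 6 of the 7 members and for NECTIN4; FOSL1 had no entry. Each sequence runs 5′ to 3′ on the strand of the gene and covers 250 bases before the start of transcription and the first 50 bases after it. Capitals mark matches to TGANTCA or TGACNTCA, searched on both strands.
FOSL2 (chr2:28392608-28392907, plus strand): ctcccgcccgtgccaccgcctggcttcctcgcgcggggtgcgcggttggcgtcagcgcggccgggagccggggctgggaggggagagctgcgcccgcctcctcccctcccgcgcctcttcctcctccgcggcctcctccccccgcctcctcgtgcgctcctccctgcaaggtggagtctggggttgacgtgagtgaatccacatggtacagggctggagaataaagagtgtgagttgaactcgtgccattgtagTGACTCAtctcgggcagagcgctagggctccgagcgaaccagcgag
JUNB (chr19:12791236-12791535, plus strand): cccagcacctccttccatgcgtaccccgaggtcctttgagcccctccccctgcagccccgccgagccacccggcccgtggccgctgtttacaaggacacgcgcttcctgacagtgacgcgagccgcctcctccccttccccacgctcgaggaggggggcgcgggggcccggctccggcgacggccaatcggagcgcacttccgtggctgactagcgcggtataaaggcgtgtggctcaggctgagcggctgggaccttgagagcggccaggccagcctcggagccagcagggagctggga
JUND (chr19:18281573-18281872, minus strand): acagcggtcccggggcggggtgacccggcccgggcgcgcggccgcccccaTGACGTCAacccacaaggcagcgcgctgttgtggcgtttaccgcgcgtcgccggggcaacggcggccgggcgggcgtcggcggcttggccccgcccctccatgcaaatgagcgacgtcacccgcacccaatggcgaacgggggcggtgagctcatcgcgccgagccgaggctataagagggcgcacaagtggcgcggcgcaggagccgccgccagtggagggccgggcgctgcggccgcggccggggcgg
JUN (chr1:58783998-58784297, minus strand): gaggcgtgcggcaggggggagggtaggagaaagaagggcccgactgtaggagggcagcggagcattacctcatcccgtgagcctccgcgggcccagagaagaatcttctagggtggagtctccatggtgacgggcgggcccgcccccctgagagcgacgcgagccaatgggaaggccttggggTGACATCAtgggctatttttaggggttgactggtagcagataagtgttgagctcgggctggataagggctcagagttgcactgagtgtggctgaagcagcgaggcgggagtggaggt
NECTIN4 (chr1:161089509-161089808, minus strand): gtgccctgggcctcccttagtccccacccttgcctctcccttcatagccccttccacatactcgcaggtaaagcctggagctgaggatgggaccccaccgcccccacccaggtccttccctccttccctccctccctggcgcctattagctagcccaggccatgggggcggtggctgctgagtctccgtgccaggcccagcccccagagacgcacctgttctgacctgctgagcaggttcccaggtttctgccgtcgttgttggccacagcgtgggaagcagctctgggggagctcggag
FOSL2 carried TGACTCA at base 5 after the start, JUND carried TGACGTCA 200 bases before the start, and JUN carried TGACATCA 67 bases before it. FOS, FOSB, JUNB and NECTIN4 had no match in this window. Of 35116 promoters of the same length, 7.71% held TGANTCA and 7.72% held TGACNTCA. A CArG box, the binding sequence of serum response factor, was found in 1.29% of all promoters and in none of the 7 windows searched. Sites more than 250 bases before the start lay outside these windows and were not searched. JUND had the highest share of G and C of these windows, at 77.0%, against a median of 58.7% over all promoters.

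In GENCODE release 29 (GRCh38) the members lie on chromosomes 1 (JUN), 2 (FOSL2), 11 (FOSL1), 14 (FOS) and 19 (FOSB, JUNB and JUND). JUN, JUNB and JUND are genes of 1 exon, and the coding transcripts of the FOS genes have 4. FOSB overlaps ERCC1, JUNB overlaps HOOK2 and FOSL2 overlaps FLJ31356, in each case on the opposite strand. FOSL2 also overlaps a sense intronic transcript. The assay reads 1 amplicon per gene. Neither the amplicon positions nor whether reads were assigned by strand was given in the sources used here. Whether reads of these overlapping partners count towards the member is therefore not known.

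PVRL4 was lower in each PVRL4 siRNA library than in each control library. It was at 3.39, 2.91 and 2.58 RPM with siRNA 2, at 5.99, 4.36 and 4.67 RPM with siRNA 1 and at 9.93, 7.86 and 11.6 RPM in control. The fall passed the threshold with siRNA 2 (log2 change -1.44, limma adjusted p = 0.00224) and missed it with siRNA 1 (-0.84, adjusted p = 0.0601; 0.0132 with the replicate number as a block, which compares libraries of the same number). The 8 libraries whose reads could be recovered held 10145423 to 10707777 reads. Whether same-group libraries came from separate cultures was not given in the labels, so the p-values measure the spread between these libraries, which may be technical. Of 8 SKBR3 and luminal markers 7 were above 1 RPM, and the exception, CDH1, lay at 0 to 0.093 RPM; SKBR3 is known to lack E-cadherin. Summed, these markers stood at 8815 to 9295 RPM with siRNA 2, at 10174 to 10611 RPM with siRNA 1 and at 10386 to 11113 RPM in control. The 6 leukocyte markers summed to at most 1.16 RPM in a library. The 6 fibroblast markers summed to at most 7.66 RPM, with COL1A1 at 3.53 to 6.35 RPM. The 3 basal markers summed to at most 2.62 RPM, with KRT5 at 1.065 to 2.33 RPM. PVRL4 siRNA 2 replicate 3 stood apart, with the lowest value of the 9 libraries for 24.9% of tested genes, against 6.87% to 10.9% in the others. Its median-of-ratios scaling factor, the level of its typical gene relative to the other libraries, was 0.945, against 0.983 to 1.04 in the others. The part of this lower level in the 24.9% was not tested.

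FOSL2, JUNB and JUND were the members read at more than 10 RPM, with means over the 9 libraries of 20.6, 23.5 and 25.6 RPM, above 70.2% to 73.0% of all genes in the table. FOS averaged 1.05 RPM and FOSB 0.577 RPM. JUN and FOSL1 averaged 0.0751 and 0.0216 RPM. Since each gene is read by its own amplicon, these ranks describe amplicon reads and do not order transcript numbers. With the exceptions of FOSL1, read in 1 library, and JUN, read in 4, each member had reads in all 9 libraries.

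**Figure D1:**
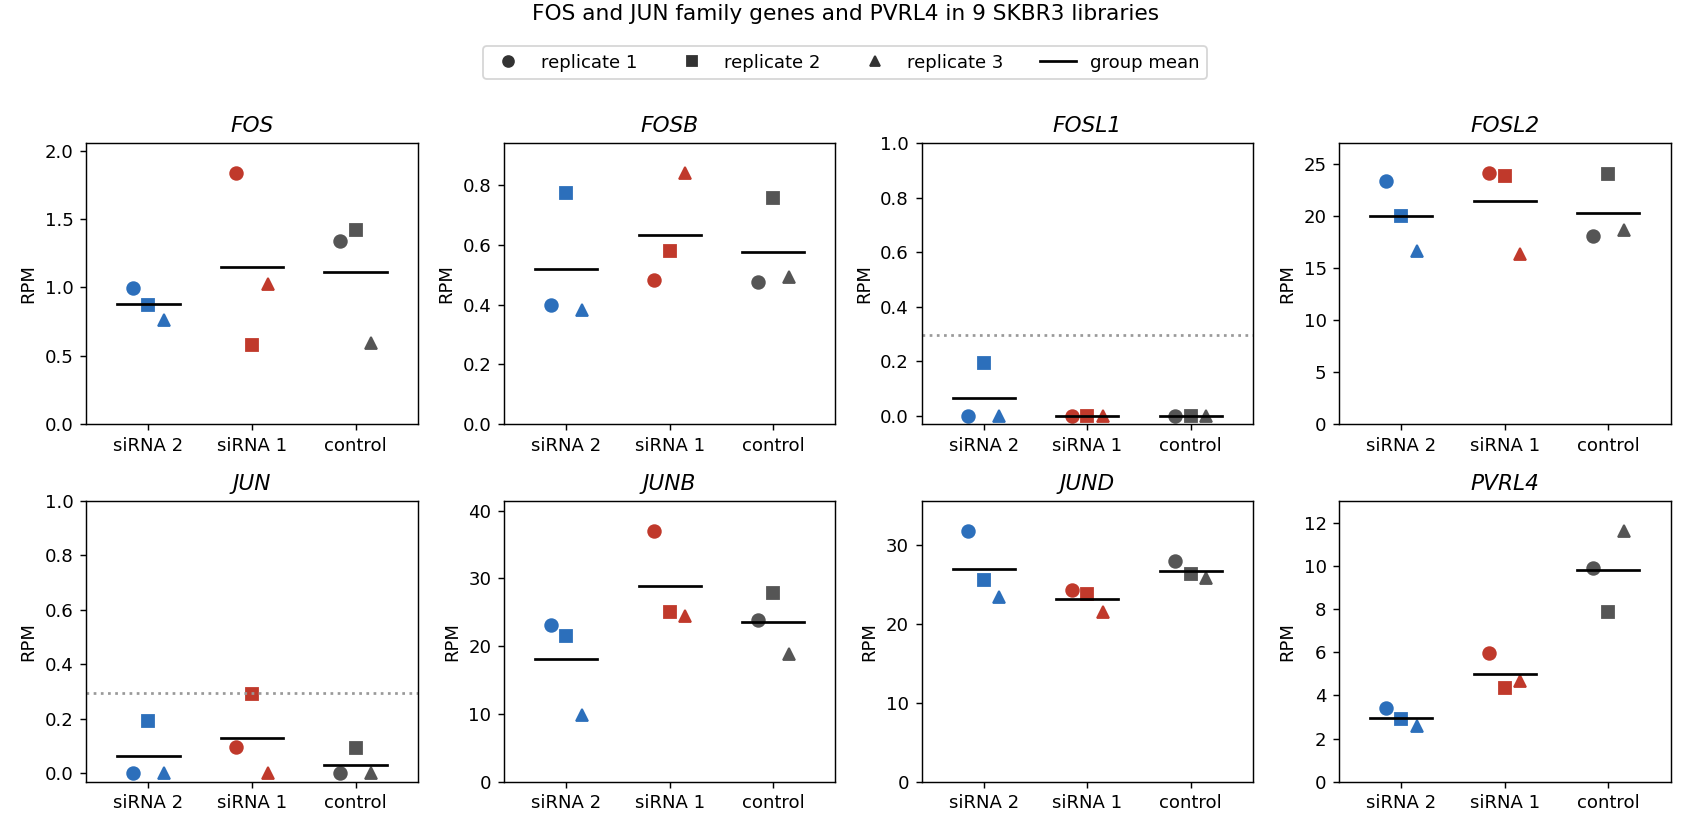
RPM of the 7 FOS and JUN family genes and of PVRL4 in each library (points, shape by replicate number) by group (PVRL4 siRNA 2, PVRL4 siRNA 1, control), with the group mean as a bar. The dotted line in the FOSL1 and JUN panels is the highest value of 3 reads over the libraries, 0.296 RPM; JUNB lies at 9.83 to 23.1 RPM with siRNA 2 and at 24.5 to 37.0 RPM with siRNA 1.

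None of the 4 tested members passed the threshold in a comparison with control or between the siRNAs (limma on log2(RPM + 1), Benjamini-Hochberg adjusted p under 0.05 over 11158 genes). The share of all tested genes called was 0.681% for siRNA 2 against control, 0.851% for siRNA 1 against control and 3.05% for siRNA 2 against siRNA 1, so that 0 of 4 members lies near these background shares. At an unadjusted p under 0.05, 0, 0 and 1 of the 4 members were called, against 9.42%, 6.04% and 15.1% of all tested genes. With both PVRL4 siRNA groups pooled against control, 0 members were called (0 at an unadjusted p under 0.05), against 0.152% of genes (6.05% unadjusted), and the 4 log2 changes lay between -0.099 and 0.023. edgeR and DESeq2, run on 8 libraries without a block, also called 0 members in all these comparisons. The median log2 change of the 4 tested members was -0.085 with siRNA 2, 0.036 with siRNA 1 and -0.12 between the siRNAs, beside -0.022, 0.014 and -0.039 over all tested genes. The 2 comparisons with control share their control libraries.

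FOSL2, a FOS-related protein without the C-terminal activation domain of FOS, did not differ beyond its spread. Its RPM was 23.4, 20.1 and 16.7 with siRNA 2, 24.1, 23.9 and 16.3 with siRNA 1 and 18.1, 24.1 and 18.7 in control. The 3 groups overlapped, and the library of lowest FOSL2 was siRNA 1 replicate 3. The log2 change was -0.02 (95% confidence interval -0.40 to 0.36) with siRNA 2 and 0.067 (-0.32 to 0.45) with siRNA 1, and limma's adjusted p was 0.983 and 0.9997. These intervals leave room for changes of about 0.4 on the log2 scale in either direction. The sign of both changes turned when 1 library was left out, and that of siRNA 2 under TMM, median-of-ratios and quantile scaling.

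FOS, the founding immediate early member, was read at 6 to 19 reads in the 8 libraries with recovered reads. Its level was 0.998, 0.872 and 0.763 RPM with siRNA 2, 1.835, 0.581 and 1.03 RPM with siRNA 1 and 1.34, 1.42 and 0.591 RPM in control. The siRNA 1 group held both the highest and the lowest FOS value, and the groups overlapped. The log2 change was -0.15 (95% confidence interval -0.71 to 0.41; adjusted p = 0.928 by limma) with siRNA 2 and 0.0047 (-0.56 to 0.57, adjusted p = 0.9997) with siRNA 1; the second turned sign under a pseudocount of 0.1 and under median-of-ratios and quantile scaling. Counting alone gives a coefficient of variation of 30.2% at this depth, beside 43.6% measured within groups. A library with 6 reads has an exact 95% Poisson interval of 2.20 to 13.1 reads, and one with 19 reads an interval of 11.4 to 29.7, which cover counting error only.

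FOSB, another immediate early member, stayed under the filter. It was at 0.399, 0.775 and 0.382 RPM with siRNA 2, 0.483, 0.581 and 0.841 RPM with siRNA 1 and 0.477, 0.758 and 0.493 RPM in control. All groups overlapped, and an exact two-sided permutation test of 3 against 3 libraries, whose smallest p is 0.1, gave p = 0.6 for each siRNA against control and 0.5 between the siRNAs. The differences of group means on the log2 scale were -0.059, 0.052 and -0.11, in the same order of comparisons.

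FOSL1, which is often high in invasive and mesenchymal-like breast cancer lines, was read in 1 library only, siRNA 2 replicate 2, with 2 reads (0.194 RPM). The other 8 libraries listed it at 0, where a count of 0 allows up to 3 reads, or 0.280 to 0.296 RPM in the libraries with recovered reads. A difference between groups was not detectable at this depth, and no fold change is given.

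JUND, the JUN protein of steadier expression, varied least of the 4 tested members, with a within-group coefficient of variation of 10.7% beside 6.22% from counting alone. It stood at 31.7, 25.5 and 23.4 RPM with siRNA 2, 24.2, 23.7 and 21.5 RPM with siRNA 1 and 28.0, 26.3 and 25.7 RPM in control. With siRNA 1 each library was below each control library, at a mean of 86.8% of control, and the 3 same-numbered pairs stood at 86.7%, 90.1% and 83.5%. In this comparison 5.59% of all tested genes lay wholly below control. The log2 change of -0.20 (95% confidence interval -0.49 to 0.091) did not pass (limma adjusted p = 0.9997, and 0.577 once the block was added), while the exact two-sided permutation test gave p = 0.1, the smallest it allows. With siRNA 2 JUND overlapped control, and its change of -0.00049 (-0.29 to 0.29, limma adjusted p = 0.999) turned sign under TMM, median-of-ratios and quantile scaling.

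JUNB, an immediate early JUN protein known as a weaker activator that can counter JUN, was the member with the widest range among those above 10 RPM. Its RPM was 23.1, 21.5 and 9.83 with siRNA 2, 37.0, 24.98 and 24.5 with siRNA 1 and 23.9, 27.8 and 18.8 in control. Both PVRL4 siRNA groups overlapped control, but each siRNA 2 library was below each siRNA 1 library. The group means were 18.1 ± 7.24 RPM with siRNA 2, 28.8 ± 7.09 RPM with siRNA 1 and 23.5 ± 4.48 RPM in control (SD, n = 3 each). Against control the log2 change was -0.42 (95% confidence interval -0.99 to 0.14; adjusted p = 0.696 by limma) with siRNA 2 and 0.28 (-0.29 to 0.84, adjusted p = 0.9997) with siRNA 1. In the same-numbered pairs siRNA 2 stood at 96.6%, 77.5% and 52.2% of control, and with the replicate block the interval was -0.78 to -0.07 (unadjusted p = 0.0214, limma adjusted p = 0.206), short of the threshold. With siRNA 1 the pairs stood at 155%, 90.0% and 130% of control. Without siRNA 2 replicate 3 the unpaired change with siRNA 2 was -0.056, and without siRNA 1 replicate 1 that with siRNA 1 was 0.088.

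Between the siRNAs JUNB was lower with siRNA 2 by 0.70 on the log2 scale (log2 change -0.70, 95% confidence interval -1.26 to -0.14), short of the threshold in limma without pairing (adjusted p = 0.199, unadjusted p = 0.0183). With the replicate number as a block the difference passed (interval -1.05 to -0.35, limma adjusted p = 0.0135), as did 9.33% of all tested genes in limma. For JUNB edgeR with the block on 8 libraries gave adjusted p = 0.0347. Over all alternatives run, 147 to 1041 of all tested genes were called in this comparison. In the 3 same-numbered pairs the siRNA 2 library held 62.3%, 86.1% and 40.2% of the JUNB level of its siRNA 1 partner. Of all tested genes, 12.6% lay wholly below siRNA 1 in the siRNA 2 group, and the exact two-sided permutation test for JUNB gave p = 0.1, the smallest possible. The blocked call was lost without siRNA 2 replicate 3 (log2 change -0.45, limma adjusted p = 0.0927), without siRNA 1 replicate 1 (-0.63, 0.0621) or without siRNA 1 replicate 3 (-0.55, 0.129). In the unpaired fit the change without siRNA 2 replicate 3 was -0.33 (limma adjusted p = 0.534). That library, which held the lowest JUNB value, is the one with the lowest value for 24.9% of tested genes; the part of this in the JUNB difference was not tested beyond leaving it out.

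An interferon-induced gene differed between the same libraries. ISG15, which encodes a ubiquitin-like protein induced by interferon, was at 2.50, 3.10 and 11.0 RPM with siRNA 2, 624, 64.2 and 253 RPM with siRNA 1 and 2.39, 2.65 and 3.06 RPM in control. It was higher with siRNA 1 than in control (log2 change 5.89, limma adjusted p = 0.000158). The library of highest ISG15, siRNA 1 replicate 1, was also that of highest JUNB. FOS and FOSL2 were highest there too, but their Poisson intervals overlapped those of control replicate 2, where ISG15 was at 2.65 RPM. For FOS the reads were 19 and 15 in these libraries. For FOSL2 they were 250 and 254, or 24.15 and 24.06 RPM. JUND was highest elsewhere, in siRNA 2 replicate 1 at 31.7 RPM. For 17.0% of all tested genes siRNA 1 replicate 1 was the highest library. The other siRNA 1 libraries, with ISG15 at 64.2 and 253 RPM, had JUNB at 24.98 and 24.5 RPM. The part of the interferon-induced genes in the JUNB difference was not tested.

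**Figure D2:**
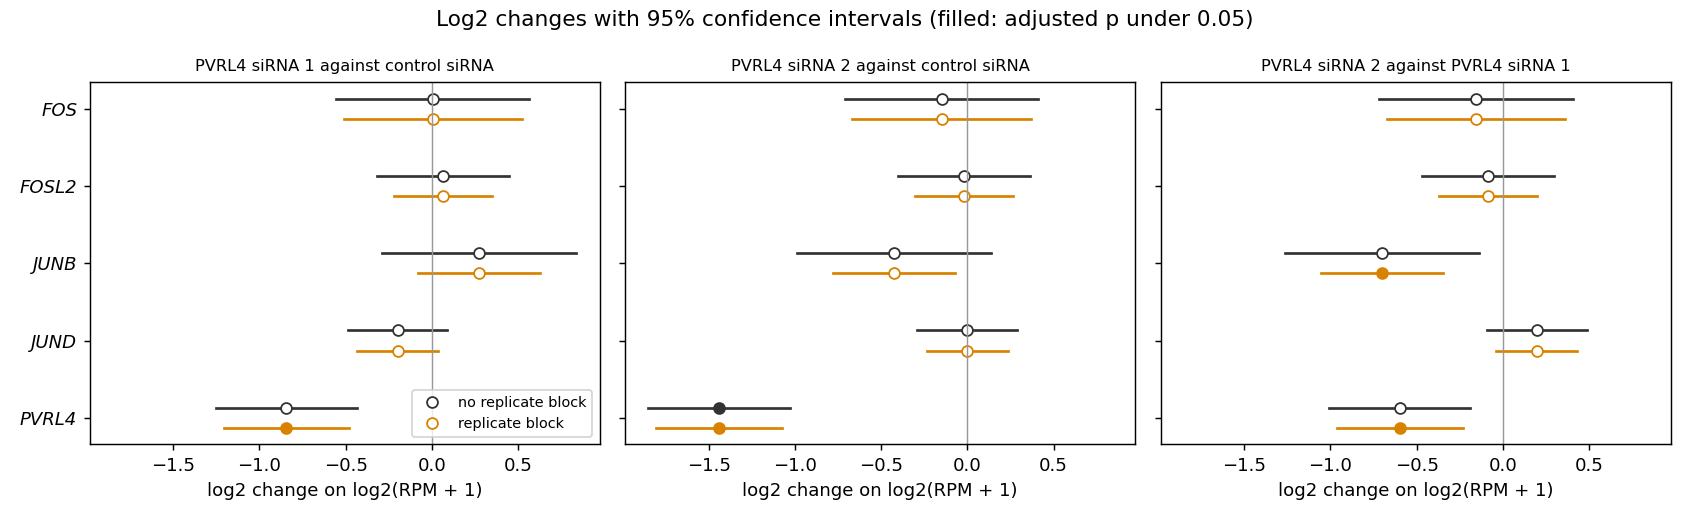
Log2 change on the log2(RPM + 1) scale (x axis) with its 95% confidence interval for the 4 tested members and PVRL4 in 3 comparisons, from limma without (black) and with (orange) the replicate block; filled points have adjusted p under 0.05. Among the members only JUNB between the siRNAs, with the block, is filled, at -0.70.

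The JUNB level was also set against that of JUND. The ratio of JUNB to JUND within a library, which a single scaling factor per library leaves unchanged, was 0.726, 0.844 and 0.420 with siRNA 2, 1.53, 1.05 and 1.14 with siRNA 1 and 0.853, 1.05 and 0.732 in control. Each siRNA 1 library was above each siRNA 2 library, and the ratio averaged 0.664 ± 0.219 with siRNA 2 and 1.24 ± 0.252 with siRNA 1 (SD, n = 3 each). On the log2 scale the ratio was lower by 0.94 with siRNA 2 (-0.94; exact two-sided permutation p = 0.1, the smallest possible). Against control the log2 difference of the ratio was -0.45 with siRNA 2 and 0.49 with siRNA 1 (exact permutation p = 0.2 each). The ratio was chosen after the values of both genes had been seen, and being a ratio of 2 amplicons it shows unequal change, not which gene changed.

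**Figure D3:**
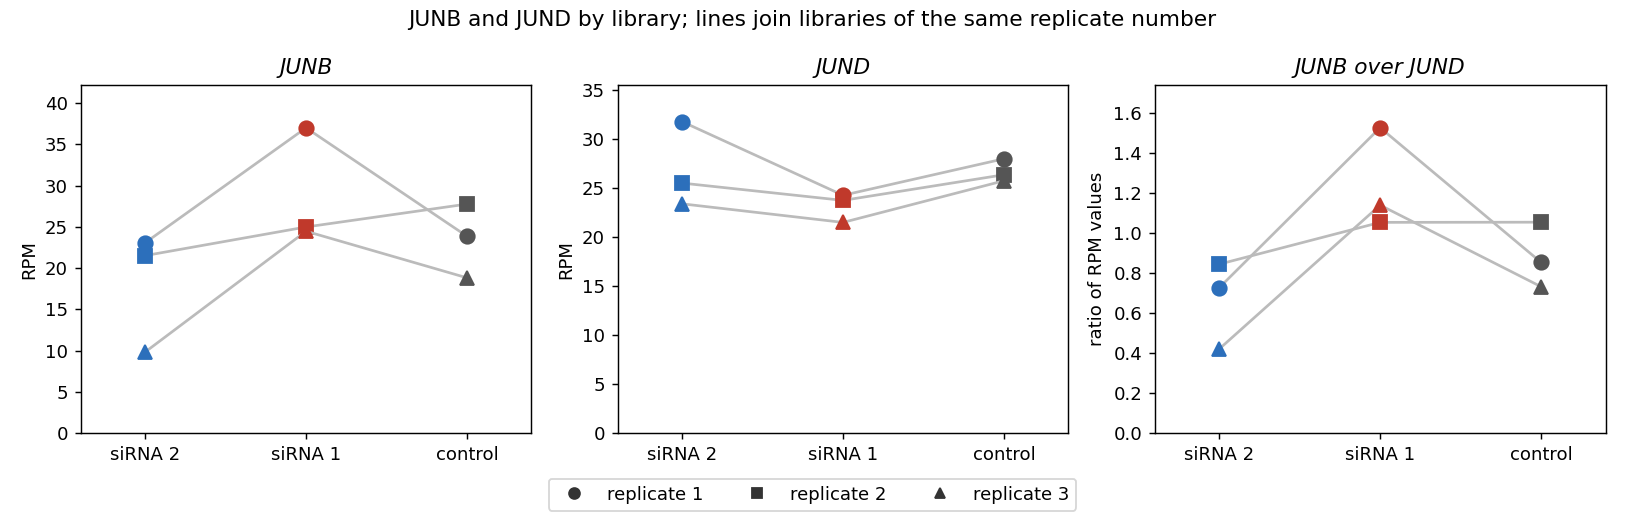
JUNB and JUND in RPM and their ratio (y axes, from 0) in the 9 libraries by group, with lines joining libraries of the same replicate number. The ratio lies at 0.420 to 0.844 with siRNA 2 and at 1.05 to 1.53 with siRNA 1, while control spans 0.732 to 1.05.

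JUN, the founding gene of the JUN group, was listed at 0 in 5 of the 9 libraries. Its RPM was 0, 0.194 and 0 with siRNA 2, 0.097, 0.290 and 0 with siRNA 1 and 0, 0.095 and 0 in control. The highest value is 3 reads, with an exact 95% Poisson interval of 0.619 to 8.77 reads, so all libraries lie at or below the floor and no fold change is given. Of the 3 JUN genes, JUNB and JUND had reads in all 9 libraries.

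JUNB and JUND followed the replicate number, an ordering picked after the values were seen. The share of all tested genes with such an ordering was not computed. JUND was highest in the library numbered 1 and lowest in the library numbered 3 in each of the 3 groups, and JUNB was lowest in the library numbered 3 in each group. With siRNA 1, though, JUNB hardly differed between numbers 2 and 3, at 24.98 and 24.5 RPM (258 and 262 reads). JUN, at or below the floor, was highest in number 2 in each group. FOSL2 was lowest in number 3 with both PVRL4 siRNAs but not in control, where number 1 was lowest. As a description over the 9 libraries, which fall into 3 groups and share 3 replicate numbers, Pearson's r of log2(RPM + 1) was 0.63 for FOSL2 with JUNB, 0.62 for FOS with JUNB, 0.40 for FOSL2 with JUND and 0.12 for JUNB with JUND. Of the genes averaging 10 RPM or more, those whose pattern over the 9 libraries was most like that of JUNB were ABTB2, EHD4 and SMURF1 (r of 0.97 each). For JUND these were PITPNC1 (0.95), LIN52 (0.95) and GABRQ (0.94), and for FOSL2 they were FBXO11 (0.96), ACER2 (0.96) and IMP4 (0.95). The 3 nearest to FOS, SUPT4H1, C6orf106 and GINS1, reached 0.90 to 0.91. Each set of 3 is the top of a search through 7933 genes (7934 for FOS) over 9 libraries. Such a search can return high r among unrelated genes too, and no chance level was computed.

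The other genes of the AP-1 pathway were taken from 5 lists of 79 genes, of which 59 were tested. Against control limma called 0 of them with siRNA 2 and 0 with siRNA 1. At an unadjusted p under 0.05, 3 were higher and 5 lower with siRNA 2, and 4 were higher and 0 lower with siRNA 1. The shares of all tested genes at an unadjusted p under 0.05, in either direction, were 9.42% with siRNA 2, 6.04% with siRNA 1 and 15.1% between the siRNAs, and the unadjusted counts of each list below stand beside these. On 8 libraries edgeR called 0 against control with either siRNA, and DESeq2 called 1, MT2A, lower with siRNA 2. Over all tested genes edgeR called 108 and DESeq2 159 with siRNA 1 against control. With siRNA 2 the number called ranged from 17 to 380 over the alternatives. Between the siRNAs limma called 3 lower with siRNA 2 and 0 higher, against 2.46% and 0.592% of all tested genes. In the same comparison edgeR called 1 lower (MT2A) and DESeq2 called 2 (MT2A and ZFP36L1). Over all alternatives run, 147 to 1041 of all tested genes were called there. The median log2 change between the siRNAs was -0.086 for dimer partners, -0.013 for kinases, -0.23 for promoter factors, -0.27 for turnover genes and -0.14 for target genes, beside -0.039 over all tested genes.

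Among 10 tested dimer partners of the ATF, BATF and MAF families, limma called 0 in each comparison (0 by unadjusted p with siRNA 2, 2 higher with siRNA 1, 2 lower between the siRNAs). ATF3, a stress-induced partner, had a log2 change of 0.36 with siRNA 2 (adjusted p = 0.544) and of 0.45 with siRNA 1 (adjusted p = 0.579), with means of 10.1, 10.9 and 7.66 RPM with siRNA 2, siRNA 1 and control. BATF, a JUN partner studied mainly in lymphocytes, was at 50.9, 47.8 and 48.9 RPM with siRNA 2 and at 79.4, 61.2 and 58.3 RPM with siRNA 1. The siRNA 2 libraries were all lower, by a log2 change of -0.41 (limma adjusted p = 0.107, 0.0215 with the replicate block), and edgeR with the block on 8 libraries did not call it. Among all tested genes 12.6% lay wholly lower with siRNA 2 than with siRNA 1. BATF2, BATF3, JDP2, MAF and MAFF were below the filter. Of these, BATF2 was at 0, 0 and 0.095 RPM with siRNA 2, at 1.06, 0.194 and 1.49 RPM with siRNA 1 and at 0, 0 and 0.099 RPM in control. Its value of 0.194 RPM lies under the 3 reads (0.290 RPM) of that library, and BATF2 was not tested.

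Of 16 tested kinases of the ERK, JNK and p38 cascades, which switch on FOS and JUN transcription and phosphorylate the proteins, 0 passed against control (2 higher and 1 lower by unadjusted p with siRNA 2, 0 with siRNA 1). By unadjusted p, 1 was higher and 2 were lower with siRNA 2 than with siRNA 1. With the replicate block MAP2K3, which activates p38, was higher than control with siRNA 2 (log2 change 0.36, limma adjusted p = 0.0405), and RPS6KA3 was lower (-0.58, 0.0141; 0.121 without the block); edgeR with the block called neither. With siRNA 1 the 16 kinases shared the same adjusted p, 0.9997 by limma, and MAPK11, a p38 kinase, had the smallest unadjusted p (0.209, log2 change -0.27). RPS6KA3, the ERK-activated kinase RSK2, was lower with siRNA 2 than with siRNA 1. RPS6KA3 was at 26.9, 25.9 and 32.2 RPM with siRNA 2 and 40.3, 39.9 and 49.7 RPM with siRNA 1 (log2 change -0.60, limma adjusted p = 0.0478). The groups did not overlap, as was so for 12.6% of all tested genes, which lay wholly lower with siRNA 2 than with siRNA 1. Over 22 alternatives its adjusted p ranged from 0.00543 to 0.213, and the call was lost under 16 of them, among these TMM (0.0858), median-of-ratios (0.0912) and quantile scaling (0.108).

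The 12 tested transcription factors of the FOS and JUN promoters gave 0 calls (1 lower by unadjusted p with siRNA 2, 0 with siRNA 1, 3 lower between the siRNAs). With siRNA 1 the 12 factors shared the same adjusted p, 0.9997 by limma, and ELK3, an ETS factor of the same promoter element as SRF, had the smallest unadjusted p (0.147, log2 change -0.32). SRF, the serum response factor of the FOS promoter, had a log2 change of -0.50 between the siRNAs and passed with the replicate block (limma adjusted p = 0.00607) but not without it, nor by edgeR with the block on 8 libraries. STAT3, which binds the FOS promoter after cytokine signals, was at 299, 301 and 246 RPM with siRNA 2 and at 398, 346 and 357 RPM with siRNA 1. Its groups did not overlap (log2 change -0.38, limma adjusted p = 0.0582, 0.00691 with the block), and edgeR with the block did not call it. A share of 12.6% of all tested genes lay wholly lower with siRNA 2 than with siRNA 1. Quantile scaling alone among the scalings called STAT3.

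Of 9 tested genes of FOS and JUN turnover, ZFP36L1 was lower with siRNA 2 than with siRNA 1. ZFP36L1 binds AU-rich elements of short-lived messenger RNAs and promotes their decay. It was at 76.9, 80.0 and 57.5 RPM with siRNA 2 and at 119.7, 97.5 and 114.9 RPM with siRNA 1 (log2 change -0.63, limma adjusted p = 0.0225). Against control 0 passed (2 lower by unadjusted p with siRNA 2, 0 with siRNA 1). By unadjusted p, 0 were higher and 3 lower with siRNA 2 than with siRNA 1. With the replicate block ZFP36L1 was lower than control with siRNA 2 (log2 change -0.48, limma adjusted p = 0.0412, 0.168 without the block), a call that edgeR with the block did not make. The call between the siRNAs was lost under 6 of 22 alternatives: without siRNA 2 replicate 3 (0.0640), without siRNA 1 replicate 1 (0.0872) or 3 (0.0790), with no filter (0.0550), without a trend (0.0690) and by edgeR (0.0602).

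Of 25 textbook AP-1 target genes only 12 were tested, and the collagenase and stromelysin genes MMP1 and MMP3 were listed at 0 in all 9 libraries. MT2A, which encodes a zinc-binding metallothionein and whose promoter is a classic AP-1 target, was lower with siRNA 2 than with siRNA 1. It was at 442, 407 and 287 RPM with siRNA 2, at 1086, 806 and 661 RPM with siRNA 1 and at 671, 578 and 510.4 RPM in control. The difference between the siRNAs was -1.16 on the log2 scale (limma adjusted p = 0.00323), and it passed under all 22 alternatives (adjusted p of 6.59e-08 to 0.0266). Against control 0 targets passed (1 higher and 1 lower by unadjusted p with siRNA 2, 2 higher with siRNA 1). By unadjusted p, 0 targets were higher and 2 lower with siRNA 2 than with siRNA 1. With the replicate block MT2A was lower than control with siRNA 2 (-0.64, limma adjusted p = 0.000435) and higher with siRNA 1 (0.52, 0.00266). DUSP1, a MAP kinase phosphatase, was higher with siRNA 1 in the blocked fit (0.78, limma adjusted p = 0.00993, 0.337 without the block). In that fit it was also higher with both PVRL4 siRNAs pooled against control (0.58, limma adjusted p = 0.0466, 0.631 without the block). With siRNA 2 alone its log2 change was 0.37 (limma adjusted p = 0.729 without the block), and the blocked fit did not call it. DUSP1 was at 39.3, 43.1 and 25.4 RPM with siRNA 2, at 75.3, 40.1 and 33.6 RPM with siRNA 1 and at 30.1, 28.3 and 22.7 RPM in control.

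**Figure D4:**
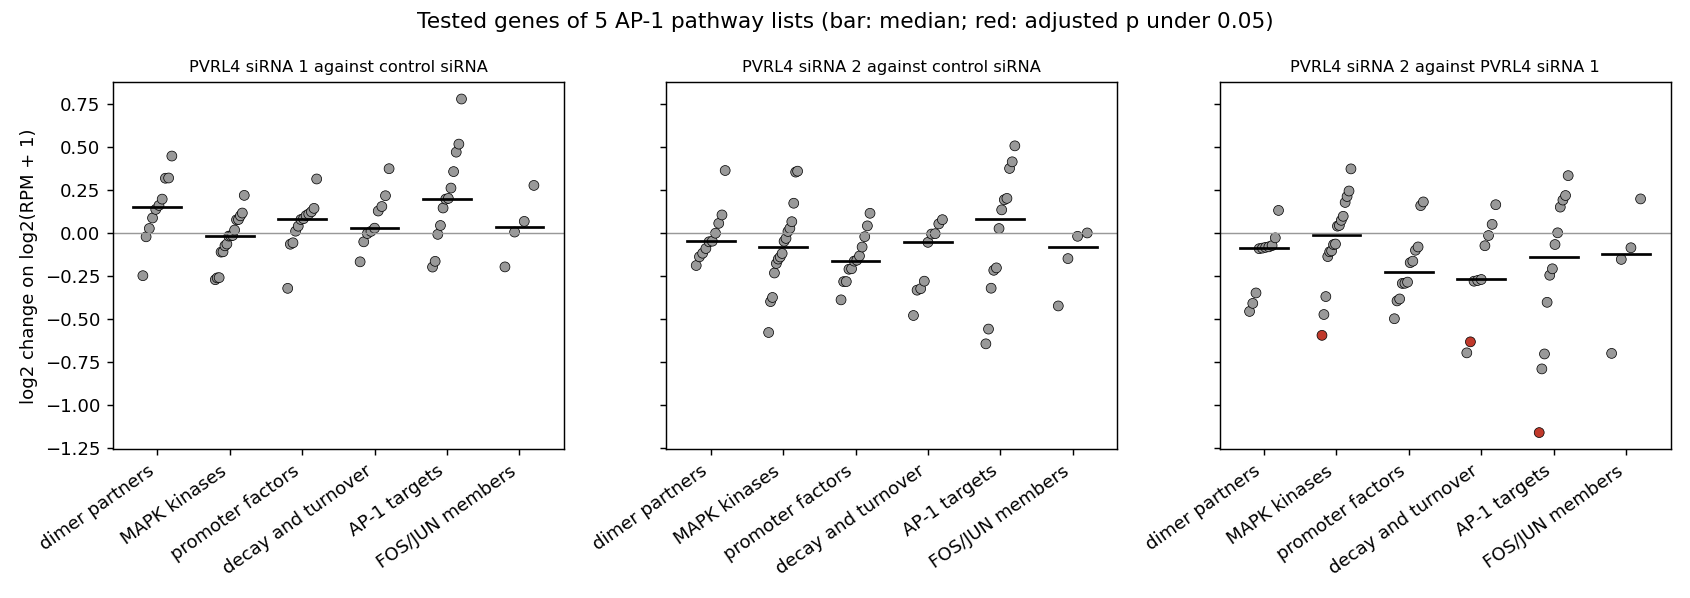
Log2 change on the log2(RPM + 1) scale (y axis) of each tested gene of the 5 AP-1 pathway lists and of the 4 tested members in 3 comparisons, with the median of each list as a bar and adjusted p under 0.05 in red. Red points appear between the siRNAs only, for RPS6KA3 (-0.60), ZFP36L1 (-0.63) and MT2A (-1.16).

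With the replicate block the 5 lists gave more calls. Against control 1 of the 59 genes was higher and 4 were lower with siRNA 2, and 2 were higher and 0 lower with siRNA 1, where limma with the block called 3.41% and 1.85% of all tested genes. With both siRNAs pooled against control 1 was higher (DUSP1) and 0 were lower, in limma and in edgeR with the block. Over the alternatives 0 to 129 of all tested genes were called in this pooled comparison. Between the siRNAs, 11 were lower with siRNA 2 and 1 was higher, against 6.52% and 2.81% of all tested genes. edgeR with the same block on 8 libraries called fewer. It called 1 lower with siRNA 2 against control (MT2A), 2 higher with siRNA 1 (DUSP1 and MT2A), and 5 lower and 0 higher between the siRNAs (MMP13, MT2A, PLAU, RPS6KA2 and ZFP36L1). The shares above are those of limma. Over all tested genes edgeR with the block called 227 with siRNA 1 against control. For the other comparisons only the range over the alternatives is given here. It was 17 to 380 genes with siRNA 2 against control and 147 to 1041 between the siRNAs. Beside SRF, STAT3, BATF, RPS6KA3, ZFP36L1 and MT2A, the lower ones between the siRNAs in limma were ATF7, RPS6KA2, MMP13, PLAU and ZFP36, and the higher one was RPS6KA1, and all were named after the calls were seen. The AU-rich element binding protein gene ZFP36 was at 10.3, 10.2 and 9.16 RPM with siRNA 2 and at 26.1, 10.6 and 16.4 RPM with siRNA 1. PLAU, the urokinase gene, was at 6.39, 14.1 and 6.20 RPM with siRNA 2 and at 9.85, 24.1 and 11.8 RPM with siRNA 1. PLAU was highest in the library numbered 2 in each group.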

How the data were processed

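The authors deposited RPM values, gene reads scaled to library size, for 20812 genes in 9 libraries made from 100 ng of total RNA with the Ion AmpliSeq Transcriptome kit, per the labels' protocols. Per the submitters' processing notes the build was hg19. Which aligner or counter was used is not given in the sources used here. In 8 libraries the steps between RPM values gave back reads, 100% of them whole within 0.1 read, at 10145423 to 10707777 reads a library. In PVRL4 siRNA 2 replicate 1 the step could not be told from rounding, so edgeR and DESeq2 ran on 8 libraries, a choice made after seeing the data.

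The main test was limma (3.58.1, R 4.3.3) with a trended prior on log2(RPM + 1) for genes averaging 1 RPM or more, fitted to all 3 groups, in 4 comparisons, two-sided, with Benjamini-Hochberg adjustment over 11158 genes. Fold changes on this scale understate those of low genes. Alternatives were other pseudocounts, filters and scalings, the replicate block, left-out libraries, edgeR 4.0.16 and DESeq2 1.42.0. The limma step without the block was tested on simulated data that held no replicate effect and no outlying library. The blocked fit was not tested in this way. Same-numbered libraries deviated together (r of 0.252 to 0.417 in 9 pairs), and the 18 other pairs had r of -0.34 to -0.0275. The numbers were therefore taken to pair the samples, and the pairing comes from the replicate numbers in the labels. Deviations were taken from the mean of each group, so they cancel within it. Positive values in same-numbered pairs then force negative ones in the others, which are no separate evidence of pairing.

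The members and the 5 gene lists were chosen with earlier results of these data known. Of each list, genes past the threshold in a comparison were named, or else the one of smallest adjusted p, with ties broken by the unadjusted p. Members under the filter were given as values with exact permutation tests.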

Additional observations from a re-analysis of the deposited data

How the results depend on the processing

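With the replicate block, and by edgeR with the replicate block on 8 libraries, 1 member (JUNB) was called between the siRNAs, against 0 in the unpaired fit; no other member's call changed under any alternative run. The blocked JUNB call held under TMM, median-of-ratios and quantile scaling (adjusted p = 0.0155, 0.0155 and 0.0227) and was lost without 3 of the 9 libraries in turn (limma adjusted p over the 9 of 0.0017 to 0.129). Several changes near 0 turned sign; the cause was not tested. With siRNA 1 against control, FOS was at -0.0078 with a pseudocount of 0.1, -0.00098 with median-of-ratios and -0.13 with quantile scaling. With siRNA 2 against control, FOSL2 was at 0.0085, 0.0062 and 0.022 with median-of-ratios, TMM and quantile scaling, and JUND at 0.028, 0.026 and 0.042, and at 0.00070 with a pseudocount of 5. Between the siRNAs quantile scaling gave 0.011 for FOS and 0.0036 for FOSL2. With both siRNAs against control FOSL2 was at -0.015 by edgeR, -0.011 by edgeR with the replicate block and -0.014 by DESeq2. Leaving out 1 library at a time gave -0.22 to 0.20 for FOS and -0.025 to 0.24 for FOSL2 with siRNA 1. It gave -0.13 to 0.10 for FOSL2 and -0.12 to 0.090 for JUND with siRNA 2, and -0.35 to 0.067 for FOS and -0.26 to 0.032 for FOSL2 between the siRNAs. With both siRNAs it gave -0.27 to 0.037 for FOS, -0.049 to 0.15 for FOSL2 and -0.22 to 0.11 for JUNB. Over all genes the number called was 76 with siRNA 2 (17 to 380 over the alternatives), 95 with siRNA 1 (46 to 227), 340 between the siRNAs (147 to 1041) and 17 with both (0 to 129); the replicate block gave 380, 206, 1041 and 124. edgeR and DESeq2 on all 9 libraries were not run. Depth limits FOS, FOSB, FOSL1 and JUN, which had at most 19 reads in a library.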

Other observations

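Single libraries held a large share of the extreme values of the AP-1 pathway genes, a description chosen after the values were seen. PVRL4 siRNA 1 replicate 1 was the highest of the 9 libraries for 15 of the 59 tested list genes (25.4%), beside 17.0% of all 11158 tested genes. PVRL4 siRNA 2 replicate 3 was the lowest for 20 of the 59 (33.9%), beside 24.9% of all tested genes. Without PVRL4 siRNA 2 replicate 3, limma called MT2A and RPS6KA3 lower and RPS6KA1 higher between the siRNAs among these genes. Without PVRL4 siRNA 1 replicate 1 it called MT2A alone.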
